A study of Mus musculus with 33 samples.

Results

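The cells described here were the 10 embryonic day 14.5 (E14.5) mouse ventricular cardiomyocytes sorted as positive for the mAG-hGem reporter, out of 33 sequenced single cells. They were chosen by their own counts: in each cell the summed counts of 7 replication genes (Mcm2 to Mcm7 and Pcna) were divided by the summed counts of 8 mitotic genes (Ccnb1, Ccnb2, Cdc20, Plk1, Aurka, Cenpe, Hmmr and Top2a). The 5 cells of highest ratio are called S-like and the 5 of lowest ratio G2/M-like. What follows describes these 2 classes over genes that the ratio did not use.

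Cells of a dividing tissue copy their DNA in S phase and separate it in mitosis. The genes for the 2 tasks are switched on in successive waves: E2F factors drive the genes of G1/S and S phase, and a complex with MuvB, B-MYB and FOXM1 drives those of G2 and mitosis, many through a promoter element called the cell cycle genes homology region (CHR). Fetal cardiomyocytes divide, and most leave the cycle shortly after birth.

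All cells came from mice carrying mAG-hGem, a green protein (Azami Green) joined to a fragment of geminin that is destroyed in G1, so that positive cells are in S, G2 or M phase. Ventricles were digested with enzymes and the cells sorted by fluorescence. Each cell's mRNA was amplified as antisense RNA, and a cell was kept if PCR found Tnnt2, a cardiomyocyte gene, and not Pdgfrb. The series has 4 groups: 10 E14.5 positive, 11 E14.5 negative, 8 postnatal day 19 (P19) positive and 4 P19 negative cells, each cell being 1 sample. The labels name no strain, sex or animal and do not say how many hearts were used, nor what promoter drives the reporter.

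Levels are CPM, a gene's count scaled to a common library total in each cell, with no correction for gene length. A class level is the CPM of its 5 cells' summed counts, and a log2 ratio is S-like over G2/M-like, so that a negative value means a higher level in the G2/M-like class. Since each sample is 1 cell, the classes were cut from the counts themselves and no animal is named, no test was run. A pair of bounds after a log2 ratio is its 95% interval for counting error only, and PCR copies are not independent molecules, so the values of the 5 cells show the spread. Cells are numbered in accession order, and values are always listed in the order of the ratio: S-like cells 2, 4, 1, 5 and 6, then G2/M-like cells 9, 8, 10, 7 and 3.

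The ratio ran from 24.3 to 0.0693. It was 24.3, 17.2, 2.84, 2.74 and 2.38 in the S-like cells and 1.18, 0.429, 0.148, 0.137 and 0.0693 in the G2/M-like cells. The replication sum was 4392, 11131, 2650.1, 4303 and 2463 CPM in the S-like cells and 2259.6, 1387, 499.7, 543 and 159.5 CPM in the G2/M-like cells. The mitotic sum was 181, 645, 932, 1573 and 1036 CPM in the S-like cells and 1921, 3231, 3387, 3976 and 2303 CPM in the G2/M-like cells. Cells 2 and 4 stood far above the other 3 S-like cells in ratio, and the order was graded at the cut between the classes, with cell 6 at 2.38 just inside the S-like class and cell 9 at 1.18 just outside it. Neither sum overlapped between the classes, but the rule used these genes and nothing is read from it. Rankings by mean log2(CPM + 1) and by the ratio without Pcna and Top2a gave the same 5 S-like and 5 G2/M-like cells.

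**Figure D1:**
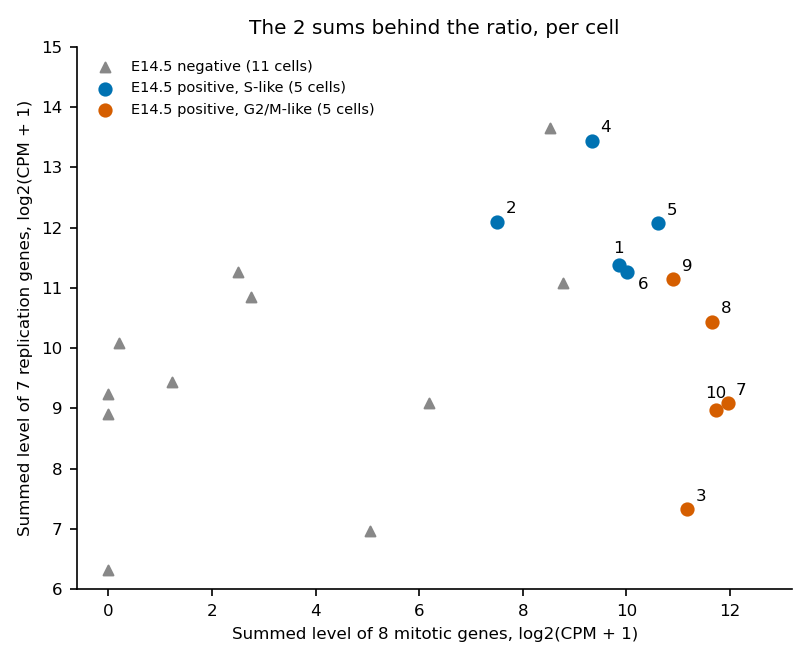
Summed level of the 7 replication genes (vertical axis) against that of the 8 mitotic genes (horizontal axis), both in log2(CPM + 1), one point per cell with the cell number beside the E14.5 positive cells. The 5 G2/M-like cells lie at the lower right, and the E14.5 negative cells have mitotic sums of 0 to 436 CPM, against 181 to 3976 CPM in the E14.5 positive cells.

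The named markers carried the label unevenly. Ccnb1, the cyclin that drives entry into mitosis, was 10.8, 46.8, 73.8, 153 and 49.2 CPM in S-like and 270.4, 922, 1155, 1413 and 330.02 CPM in G2/M-like cells, without overlap. Hmmr, a spindle protein, was 13.1, 19.2, 168, 415 and 248 CPM in S-like and 255, 193, 331, 496 and 612 CPM in G2/M-like cells, and these overlapped: S-like cell 5 exceeded 3 of the G2/M-like cells. Pcna, the sliding clamp of DNA polymerase, was 3450.03, 8396, 1403, 2683 and 1940.5 CPM in S-like and 1971, 997, 118, 323 and 25.1 CPM in G2/M-like cells. Mcm4, a subunit of the replicative helicase, was 531, 1708, 553, 1255 and 303 CPM in S-like and 0.0478, 166, 360.3, 209 and 0.144 CPM in G2/M-like cells. G2/M-like cell 9 overlapped the S-like range of Pcna, and cell 10 that of Mcm4. Among the other ratio genes Mcm7 hardly differed (log2 ratio 0.06), Mcm2 differed by 0.70 and Top2a by -1.65. All of these genes belong to the ratio, so their values only describe how the classes were chosen.

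Depth and labelling moved with the classes. S-like cells had 11.9 to 18.3 M counts and G2/M-like cells 13.9 to 60.2 M. The sample titles carry a number, whose meaning the labels do not give: all 5 S-like cells have numbers from 1 to 10, and 4 of the 5 G2/M-like cells have numbers from 25 to 29, cell 3 (title number 5) being the exception. Class, title number and depth therefore cannot be told apart for most of what follows. With every cell thinned to 11872374 counts, 8259 to 11204 genes had a read in the S-like cells and 7349 to 8562 in the G2/M-like cells. Cell 3 had the fewest. For a gene without a count in a cell, little RNA and RNA lost in amplification cannot be told apart.

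Outside the ratio, 12533 genes had at least 10 counts over the 10 cells. Of these 4340 (34.6%) were at least 2-fold higher in the S-like class and 2936 (23.4%) at least 2-fold lower, and the median log2 ratio of all genes was 0.19. A stricter count asks that every cell of one class lie above every cell of the other. Then 180 genes (1.44%) were higher and 33 (0.263%) lower in the S-like cells. These 2 counts rose with any single cell removed, to 225 to 339 higher genes (most without cell 7) and 40 to 207 lower genes (most without cell 3, then 79 without cell 1), and without S-like cells 2 and 4 together, an exclusion chosen after seeing the data, they were 473 and 61. The lists below were picked with earlier results of these cells known, and the same cells set the ratio, so their shares describe the classes and support no more than that.

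Genes of G2 and mitosis that the ratio did not use were more often lower than higher in the S-like cells. Of 174 such genes in 6 lists, 70 (40.2%) were at least 2-fold lower in the S-like class, beside 23.4% of all genes. Another 17 (9.77%) were at least 2-fold higher, beside 34.6% of all genes, and the median log2 ratio of the 174 was -0.64. Their summed level was 12629.7, 25112, 26648, 37013 and 24124 CPM in the S-like and 45403, 57934, 48967, 59070.5 and 42924 CPM in the G2/M-like cells. Every G2/M-like cell lay above every S-like cell, cell 3 included, which shares the low title numbers with the S-like class. The 33 genes that were lower in the S-like cells without overlap included 10 members (30.3% of the 33 and 5.75% of the measured members, beside 0.263% of all genes): Birc5, Bub3, Cdca8, Cenpi, Ckap2, Fzr1, Kif22, Tuba1c, Tubb5 and Ube2c.

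Members differed when only cells with title numbers 1 to 10 were kept, which leaves cell 3 as the single G2/M-like cell. There the list's median log2 ratio was 0.075, with 47 members lower and 67 higher in the S-like class, while the median of all genes was 1.39. The sum in cell 3 came from fewer detected members: 146 of the members found in the table had a read in it, against 157 to 172 in the S-like cells. Among the genes named below, the log2 ratios of Spc25 (0.38), Zwint (4.80), Psrc1 (3.63) and Troap (0.81) were positive against cell 3 alone and negative over all 10 cells.

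**Figure D2:**
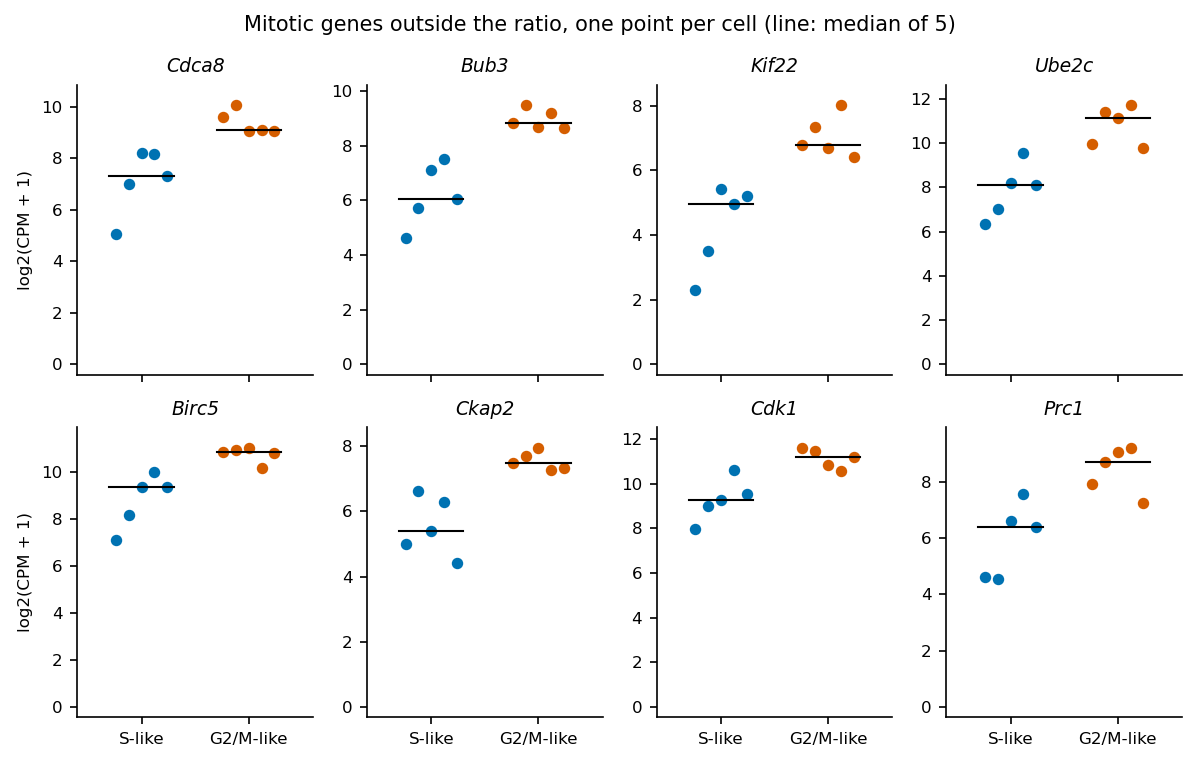
Level of 8 mitotic genes outside the ratio in log2(CPM + 1), one point per E14.5 positive cell in the order of the ratio from left to right, with the median of the 5 cells of each class as a line. The first 6 genes separate the classes without overlap. Cdk1 overlaps narrowly, S-like cell 5 (1545 CPM) lying above G2/M-like cell 7 (1511 CPM), and Prc1 overlaps through cell 3.

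In the list of kinetochore and spindle checkpoint genes, 2 and 20 of 38 members were at least 2-fold higher and lower in the S-like class (median -1.11), and in that of spindle motors and assembly 2 and 21 of 39 (median -1.17). The shares of lower members were 52.6% and 53.8%, beside 23.4% of all genes. Bub3, which with its partners holds anaphase back until chromosomes are attached, was 23.9, 52.1, 136, 184 and 66.1 CPM in S-like and 458, 715, 410.4, 586 and 396 CPM in G2/M-like cells, 5.37-fold lower in the S-like class (log2 ratio -2.42, -2.46 to -2.39). Cdca8, a subunit of the chromosomal passenger complex that corrects faulty attachments, was 32.01, 126, 295, 288 and 155 CPM in S-like and 771, 1064, 529.6, 552 and 531 CPM in G2/M-like cells, a 3.95-fold difference (-1.98, -2.01 to -1.96). Birc5, the survivin subunit of the same complex, was 135, 287, 648, 1008 and 643 CPM in S-like and 1834, 1941, 2056, 1156 and 1775 CPM in G2/M-like cells (3.04-fold). All 3 genes were lowest in cell 2, the cell of highest ratio, and none overlapped.

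Among the motors, Kif22, a chromosome-arm kinesin, was 3.87, 10.4, 41.8, 30.2 and 35.7 CPM in S-like and 109, 161, 103, 259 and 85.2 CPM in G2/M-like cells and 5.63-fold lower in the S-like class (log2 ratio -2.49, -2.56 to -2.43). Ckap2, a spindle protein that binds microtubules, was 30.9, 96.7, 41.4, 77.6 and 20.3 CPM in S-like and 178, 205, 244, 153 and 160.5 CPM in G2/M-like cells (3.58-fold). Neither overlapped between the classes, and the G2/M-like values of Ckap2 were close to one another. Tubb5, a beta tubulin, was 492, 1217, 1353, 1155 and 1147 CPM in S-like and 2512, 3649.5, 2288, 2999.6 and 1412 CPM in G2/M-like cells, without overlap, cells 1 and 3 being nearly equal. Tuba1b, an alpha tubulin, was 1136, 2604, 3803, 4031 and 1424 CPM in S-like and 8438, 11829.8, 8676, 10173 and 3728 CPM in G2/M-like cells (log2 ratio -1.78), with cell 3 inside the S-like range. Tubulin genes have near-identical copies whose reads the counting may have split, so their single values are uncertain. Spc25, a subunit of the NDC80 complex at the kinetochore, was 186, 470.1, 469, 1107 and 295 CPM in S-like and 2096, 3352, 891, 1579.98 and 425 CPM in G2/M-like cells (log2 ratio -1.90), again with cell 3 among the S-like values.

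One kinesin went the other way. Kif2a, a microtubule depolymerase also used outside mitosis, was 34.5, 71.1, 66.4, 76.2 and 105 CPM in S-like and 10.8, 0, 0.0286, 1.42 and 0 CPM in G2/M-like cells, 25.8-fold higher in the S-like class and without overlap (log2 ratio 4.69, 4.55 to 4.82). It was the only one of the 174 members that was higher in every S-like cell than in every G2/M-like cell. The E14.5 negative cells had 10.9 to 142 CPM of it. Zwint, a kinetochore gene, and Psrc1, a spindle gene, had large log2 ratios (-3.53 and -3.12) that came from cells 10 and 7: Zwint was 143 and 256 CPM there and at most 14.1 CPM in the other 8 cells. Psrc1 was 137 CPM in cell 7 and at most 9.06 CPM elsewhere.

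Of the mitotic entry genes 3 and 8 of 26 were at least 2-fold higher and lower (median -0.71), with 30.8% lower beside 23.4% of all genes. The list's sum was 1164, 2383, 2253, 4729 and 2177 CPM in the S-like and 6294, 5885, 5159, 5468 and 5879 CPM in the G2/M-like cells, without overlap. Cdk1, the kinase partner of cyclin B, was 248, 509.6, 611, 1545 and 734 CPM in S-like and 3077, 2816, 1800.2, 1511 and 2308 CPM in G2/M-like cells, 3.06-fold lower in the S-like class. Cks2, a small CDK-binding protein, was 70.6, 159, 200.4, 755 and 108 CPM in S-like and 532, 853, 544, 774 and 496 CPM in G2/M-like cells (2.28-fold), S-like cell 5 standing out among its class. Mybl2, which encodes the B-MYB factor, had the opposite pattern at a low level: 42.4, 5.98 and 7.11 CPM in S-like cells 4, 1 and 5 and no count in the other S-like and all G2/M-like cells. Ccna2, the cyclin of S and G2 phase, was 61.4, 269, 227, 839 and 117 CPM in S-like and 419, 281, 208, 460.2 and 363 CPM in G2/M-like cells (log2 ratio 0.05), and the proliferation marker Mki67 was 94.9, 389, 492, 292 and 563 CPM in S-like and 1322, 265, 803, 692 and 2159.6 CPM in G2/M-like cells (-1.17). Both overlapped widely.

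Genes of the anaphase-promoting complex and mitotic exit counted 3 and 8 of 23 higher and lower (median -0.64), with 34.8% lower beside 23.4% of all genes. Ube2c, the ubiquitin-conjugating enzyme of that complex, was 81.4, 130.4, 295, 746 and 277 CPM in S-like and 1004, 2719.8, 2259, 3359.5 and 865 CPM in G2/M-like cells, 6.33-fold lower in the S-like class (log2 ratio -2.66, -2.68 to -2.64) and without overlap. Fzr1, the activator that directs the complex to geminin in G1, was 0.505, 0, 3.69, 1.92 and 1.46 CPM in S-like and 19.9, 27.8, 29.99, 77.1 and 6.84 CPM in G2/M-like cells, 19.4-fold lower and without overlap. The E14.5 negative cells had 0.0657 to 14.3 CPM of it, so only the G2/M-like cells other than cell 3 exceeded them. Fbxo5, an inhibitor of the complex made from S phase on, was 171, 1132, 504, 635 and 188 CPM in S-like and 124, 593, 298, 553 and 0 CPM in G2/M-like cells (log2 ratio 0.51), with no count in cell 3.

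Condensin, cohesin and chromosome genes counted 6 and 7 of 25 higher and lower (median -0.40), the 28% lower being near the 23.4% of all genes. The list's sum was 3298, 3944, 6020.4, 5695 and 6091 CPM in the S-like and 7794, 8297, 7903, 7876 and 8618 CPM in the G2/M-like cells, again without overlap. Smc4, a condensin subunit, was 435 to 2085 CPM in S-like and 1274 to 2900.2 CPM in G2/M-like cells. Rad21, a cohesin subunit, was 320.1 to 891 CPM in S-like and 492 to 2728 CPM in G2/M-like cells. Cytokinesis genes divided: 1 and 6 of 24 were higher and lower (median -0.17), the 25% lower also being near the share of all genes. Prc1, which bundles the central spindle, was 23.4, 22.4, 96.5, 188 and 83.4 CPM in S-like and 241, 416, 522, 582 and 151 CPM in G2/M-like cells (4.31-fold). Troap, a spindle-associated protein, was 0 to 7.69 CPM in S-like and 2.305 to 40.7 CPM in G2/M-like cells (log2 ratio -2.26). By contrast Anln, which scaffolds the cleavage furrow, was 374, 812, 319, 836 and 1699 CPM in S-like and 356, 387, 556, 1459 and 1900.3 CPM in G2/M-like cells (0.20). Ect2, the activator of RhoA at the furrow, was 39.9, 706, 363, 743 and 55.9 CPM in S-like and 345, 517, 624, 578 and 1436 CPM in G2/M-like cells (-0.50). Sept2, a septin gene, was 1014 to 2014 CPM in S-like and 684 to 1604 CPM in G2/M-like cells (0.53). Aurkb, the passenger-complex kinase, was 49.4, 17.1, 32.9, 114 and 45.1 CPM in S-like and 59.7, 67.9, 41.9, 54.3 and 0.864 CPM in G2/M-like cells (0.07), with almost none in cell 3. None of these last 4 genes differed by 2-fold.

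The promoters of these genes are shown because the CHR is the element through which much of this wave is controlled. RefSeq promoter windows (GRCm38.p6, 250 bases before to 50 after a start site) were matched to 145 of the 174 measured G2/M genes. A CHR (TTTGAA or TTCGAA, on either strand) stood in 73 of them (50.3%), against 16 of 84 S phase genes (19.05%), 16.6% of all measured genes with a promoter entry and 21.7% of all genes in the promoter table. A CHR together with a CCAAT box was in 35.2% of the G2/M genes and 6.98% of all measured genes. For the genes whose classes did not overlap and which hold a CHR upstream of the start, the bases around it are printed on the gene's strand, with the CHR in capitals.
Bub3 (chr7:131560292-131560367, plus strand): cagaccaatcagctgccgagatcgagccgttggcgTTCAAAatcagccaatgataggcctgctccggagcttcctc
Kif22 (chr7:127042421-127042472, minus strand): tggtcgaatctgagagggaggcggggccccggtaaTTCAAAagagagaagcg
Ckap2 (chr8:22185880-22185955, minus strand): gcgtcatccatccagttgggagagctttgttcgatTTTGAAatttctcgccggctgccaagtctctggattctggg
Ube2c (chr2:164769865-164769928, plus strand): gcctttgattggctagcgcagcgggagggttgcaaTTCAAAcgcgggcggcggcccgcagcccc

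The capitals start 43 bases before the start site of the promoter entry in Bub3, 17 in Kif22, 101 in Ckap2 and 29 in Ube2c. The bases printed for Bub3 lie downstream of that gene's outermost annotated start (chr7:131560222). In Bub3 and Ube2c a CCAAT box in one orientation or the other (ccaat or attgg) can be read in the bases printed. Kif22 has another CHR 215 bases upstream, and the CHR of Cdca8 lies past its start and is not shown. A match is a run of letters and not a shown binding site. Within the G2/M genes 32 of 73 with a CHR (43.8%, median log2 ratio -0.56) and 26 of 72 without it (36.1%, -0.63) were at least 2-fold lower. Another 5 with it and 9 without it were at least 2-fold higher. Over all measured genes with a promoter entry, 26.8% with a CHR and 22.7% without it were lower.

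S phase genes outside the ratio were less one-sided. Leaving out histones, 35 of 101 (34.7%) were at least 2-fold higher and 13 (12.9%) at least 2-fold lower in the S-like class, beside 34.6% and 23.4% of all genes, and their median log2 ratio of 0.18 lay at that of all genes. Their sum overlapped between the classes, at 10411, 20537, 12559.9, 14514 and 11368 CPM in the S-like and 13727, 17792, 10362, 9277 and 10069.5 CPM in the G2/M-like cells. Cell 8 of the G2/M-like class had the sum nearest to that of S-like cell 4. Without overlap 8 members were higher (4.44% of the 180 and 7.92% of the list, beside 1.44% of all genes), among them Uhrf1, Dck, Clspn, Orc6, Rfc1, Rfc3 and Atrip, and none was lower. Atrip separated only near 0: S-like cells 2 and 4 had 0.168 and 0.167 CPM, and the highest G2/M-like cell had 0.0572 CPM. The 8 became 6 under TMM and 7 under DESeq2 scaling. Against cell 3 alone, in cells of title numbers 1 to 10, the median was 3.20, beside 1.39 for all genes, and for the 3 highest against the 3 lowest ratios it was 1.37, beside 0.58.

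**Figure D3:**
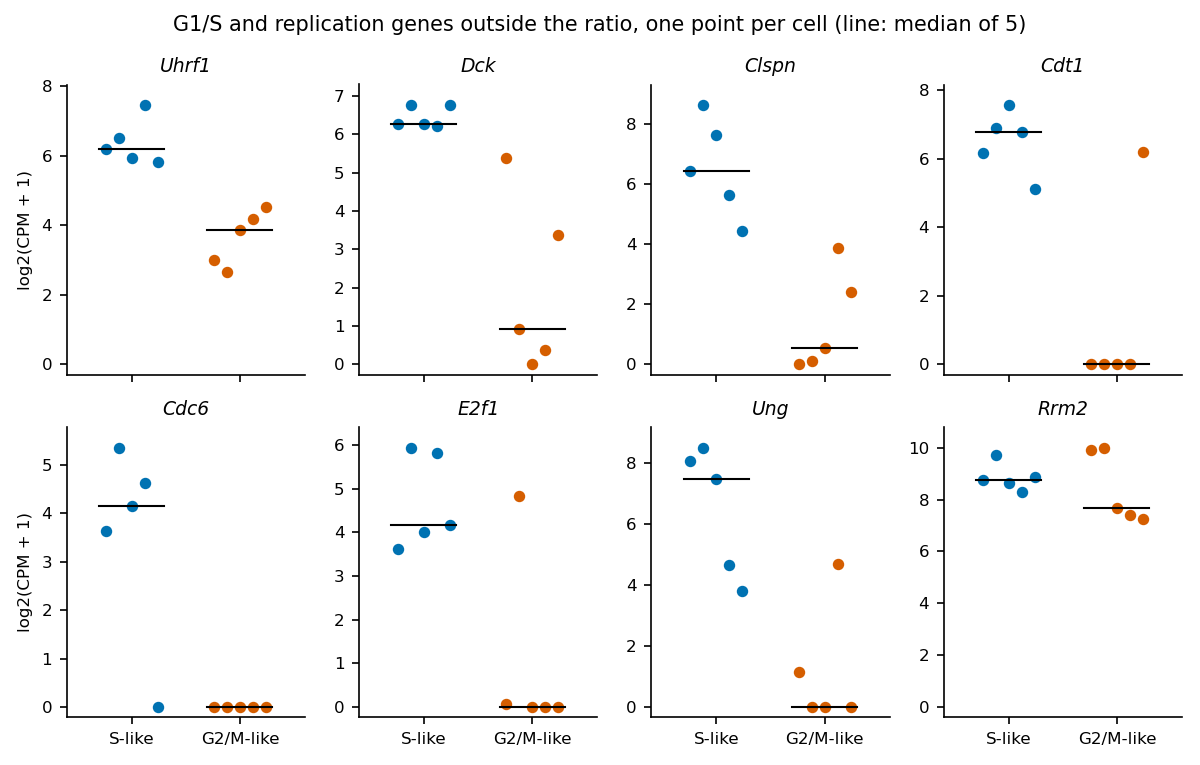
Level of 8 G1/S and replication genes outside the ratio in log2(CPM + 1), one point per E14.5 positive cell in the order of the ratio from left to right, with the median of the 5 cells of each class as a line. Uhrf1, Dck and Clspn do not overlap. Cdt1, E2f1 and Ung each have 1 G2/M-like cell inside the S-like range, Cdc6 has no count in the G2/M-like cells, and Rrm2 overlaps.

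Of the origin and fork genes 39.02% were at least 2-fold higher in the S-like class, beside 34.6% of all genes. The genes named first here were among those of large ratio. Cdt1 and Cdc6 load the MCM helicase on origins before replication. Cdt1 was 71.5, 118, 188, 109 and 33.8 CPM in S-like and 0, 0, 0, 0 and 72.7 CPM in G2/M-like cells, with no count in 4 of the 5 G2/M-like cells. Cdc6 was 11.5, 39.7, 16.7 and 23.9 CPM in S-like cells 2, 4, 1 and 5, with no count in S-like cell 6 or in any G2/M-like cell, where a floor of 3 counts over the class makes it 1098-fold higher in the S-like class. Orc6, an origin recognition subunit, was 133, 409, 109, 123 and 469 CPM in S-like and 82.3, 26.9, 0.0286, 0.0731 and 0 CPM in G2/M-like cells, 8.205-fold higher and without overlap in CPM, though under TMM scaling it overlapped (80.99 in the lowest S-like and 87.7 in the highest G2/M-like cell). The list of origin and fork genes counted 16 and 3 of 41 higher and lower (median 0.53). Clspn, the claspin adaptor of the replication checkpoint, was 84.99, 390.5, 196, 47.9 and 20.6 CPM in S-like and 0, 0.08301, 0.457, 13.4 and 4.25 CPM in G2/M-like cells (55.8-fold). Rfc3, a subunit of the clamp loader that places PCNA, was 29.9, 60.7, 30.1, 85.5 and 49.4 CPM in S-like and 24.8, 0, 0.686, 0.219 and 0 CPM in G2/M-like cells (8.88-fold). Orc6, Clspn and Rfc3 were picked after their values were seen, and Rfc3 overlapped under both other scalings (22.4 in the lowest S-like and 26.4 in the highest G2/M-like cell with TMM, 23.8 in the lowest S-like and 25.5 in the highest G2/M-like cell with DESeq2 factors).

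Other members of the same list did not follow. Tipin, of the fork protection complex, was 134, 159.6, 154, 143 and 125 CPM in S-like and 297, 80.5, 0.114, 30.9 and 47.3 CPM in G2/M-like cells (log2 ratio 0.44). Its S-like values lay within a narrow range, while the G2/M-like values ran from near 0 to above all of them. Usp1, a deubiquitinase that acts on PCNA, was 246, 721, 538, 409.96 and 135 CPM in S-like and 136, 1178, 184, 799.6 and 164 CPM in G2/M-like cells (-0.54). Its class medians ran the other way, at 409.96 CPM in S-like and 184 CPM in G2/M-like cells, and the values overlapped.

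Uhrf1, which reads hemimethylated DNA behind the fork and recruits the maintenance methyltransferase, was 72.9, 89.5, 59.6, 174 and 55.8 CPM in S-like and 6.98, 5.35, 13.6, 16.95 and 21.9 CPM in G2/M-like cells, 9.19-fold higher in the S-like class (log2 ratio 3.20, 3.13 to 3.27) and present in every cell. Hells, a chromatin remodeller with a role in DNA methylation, was 30.996, 66.8, 28.7, 76.4 and 6.77 CPM in S-like and 7.69, 0, 0.0572, 11.9 and 0 CPM in G2/M-like cells (12.03-fold), S-like cell 6 lying among the G2/M-like values. The chromatin assembly list counted 6 and 2 of 17 higher and lower (35.3% and 11.8%, median -0.19), beside 34.6% and 23.4% of all genes. Rbbp7, a histone-binding subunit of several complexes, was 1771 to 3057 CPM in S-like and 1796 to 4066 CPM in G2/M-like cells. Nucleotide supply counted 3 and 4 of 18 higher and lower (16.7% and 22.2%, median -0.03). Its member Dck, the deoxycytidine kinase of the salvage route, was 76.5, 107, 75.8, 73.2 and 107 CPM in S-like and 40.5, 0.8799, 0, 0.292 and 9.36 CPM in G2/M-like cells (8.16-fold, without overlap). Rrm2, the regulated subunit of ribonucleotide reductase, was 432, 845, 399, 311 and 462 CPM in S-like and 953, 1015, 204, 171 and 152 CPM in G2/M-like cells (log2 ratio -0.46): cells 9 and 8, the G2/M-like cells of highest replication sum, had the highest values of all 10. The class medians of Rrm2 ran the other way, at 432 CPM in S-like and 204 CPM in G2/M-like cells. Paics, an enzyme of purine synthesis, was 1848, 2059, 1044, 2469 and 2531 CPM in S-like and 1103, 558, 1638, 847 and 1037 CPM in G2/M-like cells (2.03-fold).

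Of the S phase repair and checkpoint genes 10 and 4 of 25 were higher and lower (median 0.61), a share of 40% higher beside 34.6% of all genes. Ung, which removes uracil from DNA, was 264, 359, 177, 24.5 and 12.9 CPM in S-like and 1.19, 0, 0, 24.6 and 0 CPM in G2/M-like cells (37.8-fold). Topbp1, an activator of the ATR kinase, was 167, 557, 286, 174 and 268 CPM in S-like and 91.3, 222, 112, 8.59 and 0.144 CPM in G2/M-like cells (2.34-fold). Histone genes, whose mRNAs mostly lack poly(A) tails and whose copies are near-identical, gave uncertain values: 28 of 59 found had at least 10 counts, with 6 and 14 of 28 higher and lower. These shares were 21.4% and 50%, beside 34.6% and 23.4% of all genes, and the median log2 ratio was -0.93. Hist3h2a was 297, 0.334, 158, 193 and 429 CPM in S-like and 0.287, 0.232, 0, 0 and 1.37 CPM in G2/M-like cells. Hist1h1c, a linker histone gene, was 46.5 to 524 CPM in S-like and 0 to 433 CPM in G2/M-like cells. Hist1h2be was 88.2, 41.2, 6.17, 0 and 0 CPM in S-like and 0.0239, 0, 397, 0 and 0 CPM in G2/M-like cells (log2 ratio -1.75). Hist1h1e was read only in G2/M-like cell 9 (25.1 CPM).

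The G1/S regulators counted 11 and 3 of 26 higher and lower (median 0.67), a share of 42.3% higher beside 34.6% of all genes. E2f1 was 11.4, 59.997, 15.2, 55.3 and 17.1 CPM in S-like and 0.0478, 27.6, 0, 0 and 0 CPM in G2/M-like cells (3.51-fold), with few or no counts in the G2/M-like cells except cell 8. E2f3 was 65.6, 1.42, 87.6, 137 and 5.69 CPM in S-like and 0.334, 0.614, 4.69, 0 and 6.77 CPM in G2/M-like cells (38.7-fold), with S-like cells 4 and 6 within the G2/M-like range. Cyclin E, the partner of CDK2 at S phase entry, did not separate the classes: Ccne1 was 2.695, 15.6, 52.6, 7.82 and 3.31 CPM in S-like and 62.05, 0.432, 0.515, 0 and 0 CPM in G2/M-like cells, and Ccne2 had 21 counts, nearly all in cell 1. Cks1b, a CDK-binding protein, was 426 to 1456 CPM in S-like and 622 to 3168 CPM in G2/M-like cells. Gmnn, the mouse gene of geminin itself, was 80.9, 218, 139, 120.3 and 79.9 CPM in S-like and 181, 228, 31.02, 106 and 86.9 CPM in G2/M-like cells (log2 ratio -0.23), overlapping throughout, while the E14.5 negative cells ranged from 0 to 288 CPM.

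CDK inhibitors and p53 targets counted 6 and 2 of 19 higher and lower (median 0.58), a share of 31.6% higher beside 34.6% of all genes. Btg2, an antiproliferative gene that is also an early response gene, was 2027, 535, 1336, 217 and 609.9 CPM in S-like and 99.8, 133, 10.5, 0.0731 and 184 CPM in G2/M-like cells, 10.5-fold higher in the S-like class and without overlap (log2 ratio 3.40, 3.37 to 3.42), though under DESeq2 scaling it overlapped narrowly (229 in the lowest S-like and 236 in the highest G2/M-like cell). Ccng2, an unconventional cyclin linked to cell cycle arrest, was 542, 479.6, 203, 618 and 494 CPM in S-like and 707, 602, 543, 766 and 38.3 CPM in G2/M-like cells (-0.35), with cell 3 far below the rest.

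The E2F element (TTTGGCGC or TTTCGCGC, on either strand) was searched in the same promoter windows. It stood in 13 of 84 S phase genes (15.5%), 4.83% of G2/M genes and 1.81% of all measured genes, and in 0.929% of all genes in the promoter table. Of the 13 S phase genes with the element 8 (61.5%) were at least 2-fold higher in the S-like class and 0 lower (median log2 ratio 1.999). Of the 71 without it 23 (32.4%) were higher and 9 lower (0.12). Over all measured genes with a promoter entry the higher share was not larger with the element: 54 of 180 with it (30%) and 3340 of 9770 without it (34.2%). The counts in the S phase list describe few genes, and none of these counts was tested. For Uhrf1, which did not overlap under CPM, TMM or DESeq2 scaling, and Rfc3, which did not overlap in CPM but did under the other 2 scalings, the bases around the element are printed with the element in capitals.
Uhrf1 (chr17:56304093-56304170, plus strand): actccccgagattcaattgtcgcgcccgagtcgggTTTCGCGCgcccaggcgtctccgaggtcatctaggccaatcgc
Rfc3 (chr5:151651209-151651253, minus strand): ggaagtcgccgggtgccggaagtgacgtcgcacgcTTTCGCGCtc

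The element starts 185 bases before the start site of the promoter entry of Uhrf1 and 10 before that of Rfc3. The bases printed for Uhrf1 lie downstream of the gene's outermost annotated start (chr17:56303321), so the entry is for a start site inside the gene. Clspn holds it past its start, which is not shown.

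Many of the genes with the widest gap between the classes belong to no cell cycle list. The 8 with the widest gap on the S-like side were Rasgef1b, Bmp2k, Xpa, Ifit2, Cebpd, Bbs5, Leprel1 and Zfp512. Rasgef1b, an exchange factor for Ras-family proteins, was 46.9, 27.4, 51.1, 23.6 and 27.4 CPM in the S-like cells and had no count in any G2/M-like cell, 2077-fold higher if the G2/M-like class is given the floor of 3 counts. Bmp2k, a kinase induced by BMP2, was 48.1, 80.1, 16.6, 49.9 and 62.5 CPM in the S-like cells, again with no count in the G2/M-like cells (2949-fold with the floor). Bbs5, of the complex that carries proteins to cilia, was 13.9 to 41.2 CPM against no count (1706-fold with the floor). These 3 genes were read in all 5 S-like cells and in none of the 5 G2/M-like cells.

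Xpa, a DNA damage recognition factor of nucleotide excision repair, was 42.8, 91.2, 21.7, 64.4 and 116 CPM in S-like and 0, 0, 0, 0.329 and 0 CPM in G2/M-like cells. Cebpd, a transcription factor of acute responses, was 56.3, 214, 41.6, 34.1 and 67.2 CPM in S-like and 0.0239, 0, 0, 1.17 and 0 CPM in G2/M-like cells, and the interferon-induced gene Ifit2 was 20.7 to 42.03 CPM in S-like and 0 to 0.334 CPM in G2/M-like cells. Leprel1, a collagen prolyl hydroxylase gene, was 337, 19.9, 19.5, 24.5 and 14.2 CPM in S-like and 0, 0.149, 0, 0 and 0 CPM in G2/M-like cells, most of it in cell 2, and the zinc finger gene Zfp512 was 40.9 to 168 CPM in S-like and 0 to 3.97 CPM in G2/M-like cells. Of the 180 genes higher without overlap, 27 had no count in the G2/M-like class and 74 stayed under 1 CPM in each of its cells, and the median class levels over the 180 were 36.96 and 0.771 CPM. The 33 genes on the G2/M-like side had medians of 31.7 CPM in the S-like and 163 CPM in the G2/M-like class, and 1 of them stayed under 1 CPM in every S-like cell.

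On the G2/M-like side the widest gaps were in Fzr1, Nup37, Bub3, Kif22, Cdca8, Ckap2, Ubb and Frg1, of which Fzr1, Bub3, Kif22, Cdca8 and Ckap2 are mitotic genes described above. Nup37, a nucleoporin of the Y complex, which also sits at kinetochores in mitosis, was 24.1, 34.01, 14.2, 36.3 and 26.7 CPM in S-like and 138, 153, 324, 129.7 and 236 CPM in G2/M-like cells, 6.84-fold lower in the S-like class (log2 ratio -2.77, -2.84 to -2.71). Ubb, a polyubiquitin gene, was 884, 789.9, 696, 811 and 819 CPM in S-like and 1303, 1463, 1567, 1836 and 1274 CPM in G2/M-like cells, a 1.87-fold difference with little spread inside either class. The E14.5 negative cells spanned 855 to 1677 CPM and so overlapped both classes. Frg1, linked to RNA processing, was 25.02, 22.6, 23.7, 0.109 and 11.8 CPM in S-like and 45.99, 32.5, 313, 257 and 423 CPM in G2/M-like cells (10.05-fold), the G2/M-like cells 9 and 8 lying close to the S-like values.

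**Figure D4:**
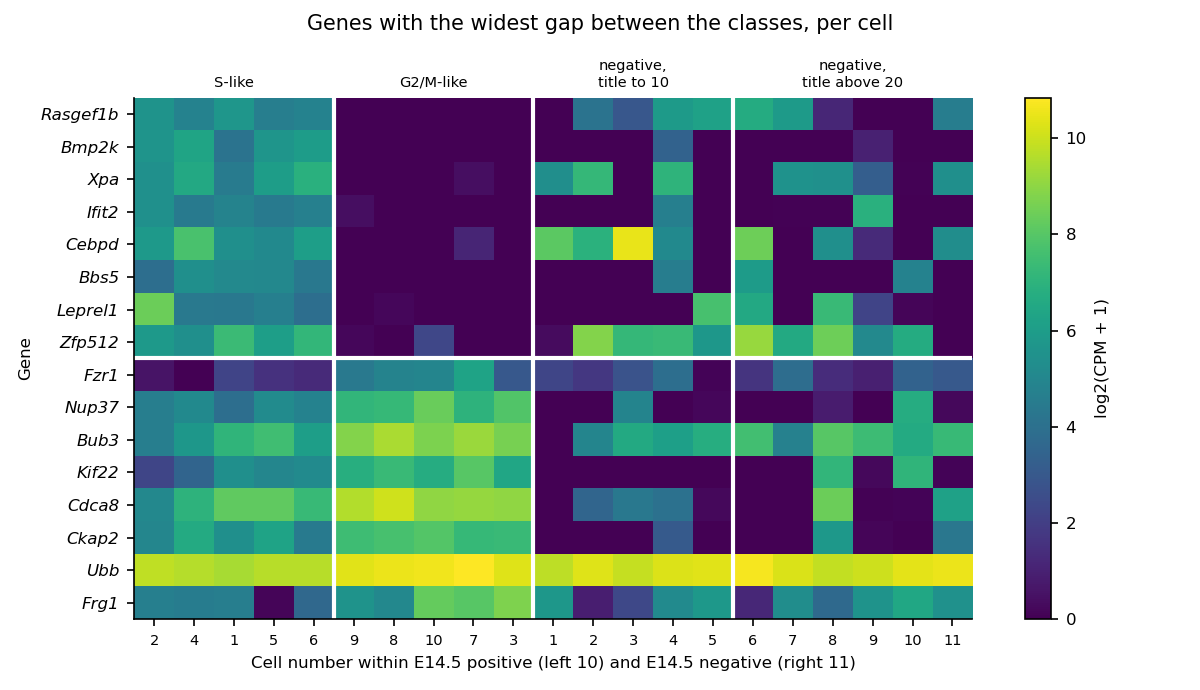
Heat map of log2(CPM + 1) for the 8 genes with the widest gap in each direction (rows), in the 10 E14.5 positive cells in the order of the ratio and in the 11 E14.5 negative cells split by title number (columns). The upper 8 genes lie at or below 3.97 CPM in all 5 G2/M-like cells. In the 11 E14.5 negative cells they are read unevenly, in both title ranges but for some genes in few cells. Bmp2k has a read in 2 of them (9.72 and 0.978 CPM), Ifit2 in 4 and Rasgef1b in 8.

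The E14.5 negative cells give the only other look at the title numbers, since 5 of them have numbers up to 10 and 6 above 20. In those cells 24.9% of 11317 genes were at least 2-fold higher and 30.8% at least 2-fold lower in the low numbers, and 21 genes (0.186%) were higher without overlap. Of the 180 genes higher in the S-like cells, 178 were measured there: 51 (28.7%) were higher and 53 (29.8%) lower in the low title numbers, and 3 (1.69%) were higher without overlap. Of the 33 genes lower in the S-like cells, 5 (15.2%) were higher and 12 (36.4%) lower in the low title numbers, and 0 were apart in either direction. The negative cells are another population, and the part of the title number in the class difference was not tested beyond this.

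Lamins, the subject of the study, did not separate the classes. Lmnb2, lamin B2, was 1.52, 26.6, 2.54, 2.24 and 8.08 CPM in S-like and 0.191, 11.97, 11.9, 1.17 and 0.432 CPM in G2/M-like cells (log2 ratio 0.15). Lmnb1, lamin B1, was 20.97, 0.501, 62.8, 68.3 and 21.1 CPM in S-like and 95.5, 3.42, 12.4, 7.42 and 15.6 CPM in G2/M-like cells (0.46). Lmna, lamin A/C, was 21.7, 3.68, 25.8, 4.104 and 4.31 CPM in S-like and 4.61, 0, 27.4, 3.91 and 0 CPM in G2/M-like cells (0.75). Each varied more between the cells of a class than between the classes. The lamina and inner membrane list counted 2 and 5 of 17 higher and lower (median 0.18), with 29.4% lower beside 23.4% of all genes. Sun2, of the complex that joins the nucleus to the cytoskeleton, was 6.91, 4.26, 6.36, 0 and 8.46 CPM in S-like and 14.9, 83.98, 36.97, 39.6 and 9.58 CPM in G2/M-like cells, 9.49-fold lower in the S-like class and without overlap. Sun1, of the same family, was 269, 152, 129, 109 and 424 CPM in S-like and 24.2, 73.8, 327, 92.7 and 1.22 CPM in G2/M-like cells (0.91). Syne2, a nesprin, was 11.5, 6.52, 103, 28.9 and 2.54 CPM in S-like and 22.4, 375, 174, 7.89 and 27.7 CPM in G2/M-like cells (-2.32), and its log2 ratio was 0.29 with cell 3 as the only G2/M-like cell. Both overlapped. Tmpo, the lamina-associated polypeptide, was 978 to 2499 CPM in S-like and 1116 to 1767 CPM in G2/M-like cells.

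The nuclear pore list counted 5 and 9 of 28 (median -0.51) and nuclear transport 3 and 4 of 21 (median -0.18) higher and lower. Their shares of lower members were 32.1% and 19.0%, beside 23.4% of all genes. Ran, the GTPase that gives transport its direction and acts on the spindle, was 971 to 2794 CPM in S-like and 1955 to 4597 CPM in G2/M-like cells. Seh1l, of the same pore complex as Nup37, was 124 to 381 CPM in S-like and 49.9 to 480.1 CPM in G2/M-like cells. Kpna2, an importin alpha, was 0.505, 1.92, 2.86, 4.05 and 0.615 CPM in S-like and 1.96, 7.903, 6.29, 59.5 and 6.05 CPM in G2/M-like cells (-2.66), the difference coming mainly from cell 7.

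**Figure D5:**
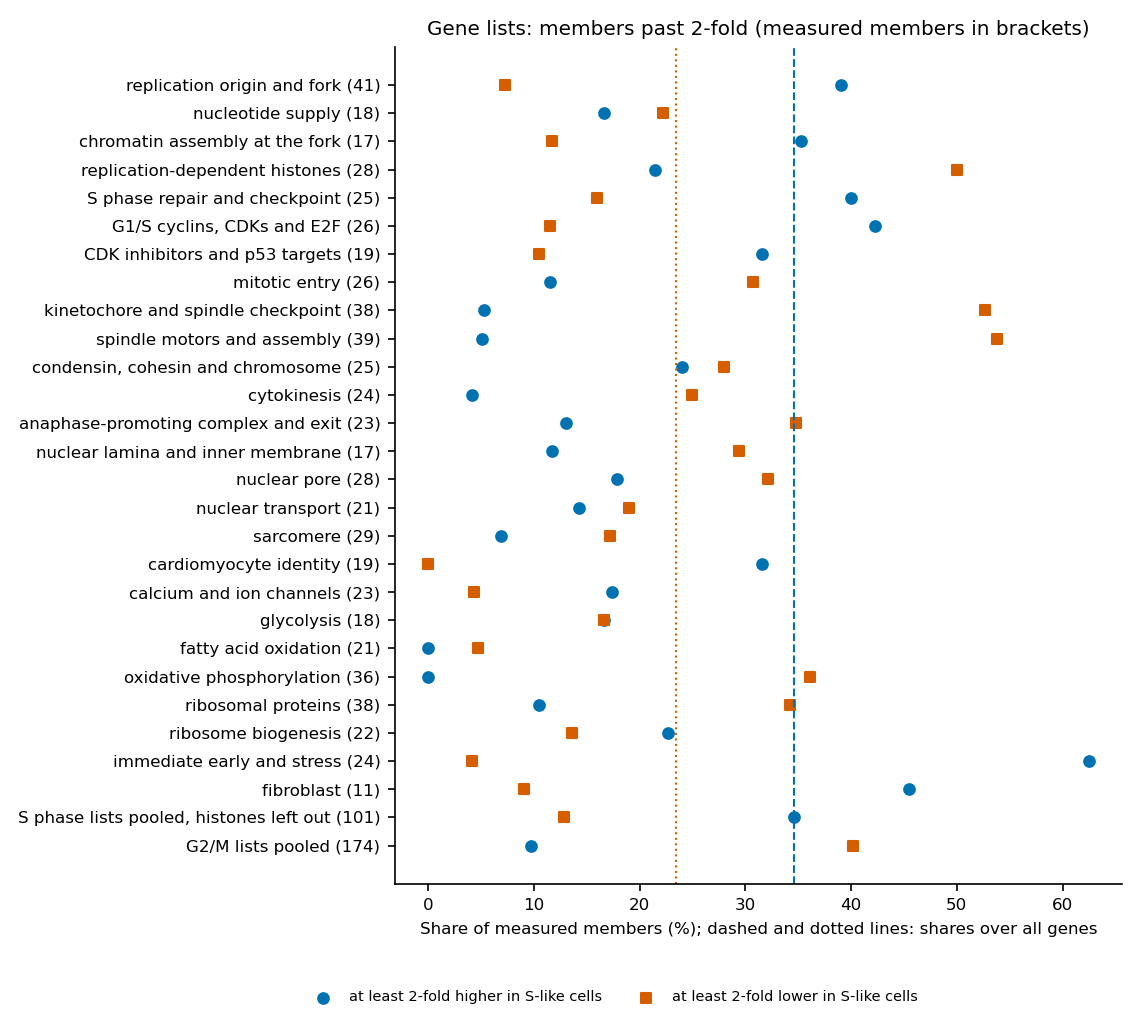
Share of the measured members of each gene list (number in brackets; lists with at least 10 measured members) that were at least 2-fold higher (circles) or lower (squares) in the S-like class. The dashed line marks 34.6% and the dotted line 23.4%, the shares over all 12533 genes. Kinetochore and spindle lists have the largest shares of lower members shown, and the immediate early and stress list the largest share of higher ones.

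Cardiomyocyte genes were read in every cell. Tnnt2, cardiac troponin T, was 3697, 1887, 3803, 1028 and 1832 CPM in S-like and 7574, 6603, 3789.7, 6091 and 964 CPM in G2/M-like cells. Actc1, cardiac actin, was 3906 to 7569 CPM in S-like and 5525 to 15817 CPM in G2/M-like cells. Tnni3, cardiac troponin I, was 233 to 442 CPM in S-like and 242 to 800.4 CPM in G2/M-like cells. The transcription factor Nkx2-5 was low, at 0.109 to 6.68 CPM in S-like and 0.216 to 8.39 CPM in G2/M-like cells, and Pdgfrb had no count except in cell 9 (1.72 CPM). Sarcomere genes counted 2 and 5 of 29 higher and lower (median -0.38), with 17.2% lower beside 23.4% of all genes. They summed to 26576, 20286, 24452, 16014 and 27479.8 CPM in the S-like and 39854, 41275, 25386, 50385 and 20653 CPM in the G2/M-like cells: cells 9, 8 and 7 were above all S-like cells, and cells 10 and 3 were not. Myl2, the ventricular light chain, was 3733, 4585, 4037, 2298 and 2599 CPM in S-like and 7551, 10689.7, 3818, 10394 and 1633 CPM in G2/M-like cells (-1.22). Myh7, the fetal myosin heavy chain of the ventricle, was 128, 19.1, 198, 124 and 73.2 CPM in S-like and 507, 355, 158, 264 and 71.7 CPM in G2/M-like cells (-1.47). In cell 3 alone Tnnt2, Myl2 and Myh7 were below the S-like class level, so their direction turned in cells of title numbers 1 to 10. Myh6 was 38.5 to 309.8 CPM in S-like and 49.6 to 572 CPM in G2/M-like cells.

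Cardiac identity genes counted 6 and 0 of 19 higher and lower (median 0.51), a share of 31.6% higher beside 34.6% of all genes. Tbx5, a heart transcription factor, was 3.37, 31.9, 48.01, 7.497 and 7.31 CPM in S-like and 1.67, 0.415, 0, 1.35 and 0 CPM in G2/M-like cells, 26.9-fold higher in the S-like class and without overlap, while the E14.5 negative cells covered both with 0 to 212 CPM. Gata6, another, was 229 to 843 CPM in S-like and 87.8 to 437 CPM in G2/M-like cells (2.01-fold). Calcium and ion channel genes counted 4 and 1 of 23 (17.4% and 4.35%, median -0.10), beside 34.6% and 23.4% of all genes. Pln, the phospholamban inhibitor of the calcium pump, was 1516 to 3806 CPM in S-like and 1102 to 3946 CPM in G2/M-like cells.

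Among metabolic lists, oxidative phosphorylation counted 0 and 13 of 36 higher and lower (median -0.82), fatty acid oxidation 0 and 1 of 21 (median -0.34) and glycolysis 3 and 3 of 18 (median -0.62). Their shares of lower members were 36.1%, 4.76% and 16.7%, beside 23.4% of all genes. Cox4i1, of cytochrome oxidase, was 94.3, 122, 179, 32.3 and 37.1 CPM in S-like and 306, 389.6, 365, 369 and 27.9 CPM in G2/M-like cells, with cell 3 lowest of all. Atp5b, of ATP synthase, was 3852 to 6901 CPM in S-like and 3283 to 10044 CPM in G2/M-like cells. Tpi1, a glycolytic enzyme, was 207, 290.5, 244, 167 and 111 CPM in S-like and 196, 706, 453, 1056 and 123 CPM in G2/M-like cells (-1.44). Slc2a4, the insulin-regulated glucose transporter, was 9.097, 8.61, 5.21, 11.2 and 27.1 CPM in S-like and 0.239, 0.0664, 0, 0 and 2.16 CPM in G2/M-like cells, 48.6-fold higher in the S-like class and without overlap. The ribosomal protein list counted 4 and 13 of 38 (median -0.70), with 34.2% lower beside 23.4% of all genes. But Rpl4 was 16131, 30415, 4546, 18893 and 33158 CPM in S-like and 2771, 4002, 10409.6, 5211 and 13450.2 CPM in G2/M-like cells (3.36-fold higher in the S-like class). Rps4x was 579 to 1201 CPM in S-like and 843 to 3094 CPM in G2/M-like cells (-1.15). Ribosomal protein genes have processed copies in the genome, so such values are uncertain. Against cell 3 alone, within title numbers 1 to 10, the log2 ratios turned positive for Cox4i1 (1.71), Tpi1 (0.72) and Rps4x (0.20). Ribosome biogenesis counted 5 and 3 of 22 (22.7% and 13.6%, median -0.19), beside 34.6% and 23.4% of all genes. Npm1, nucleophosmin, was 2259 to 3735 CPM in S-like and 1518 to 2965 CPM in G2/M-like cells.

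Among lists of at least 10 measured members, the one with the highest share of members above 2-fold in the S-like class was that of immediate early and stress genes, which respond quickly to handling: 15 and 1 of 24 were higher and lower (62.5% and 4.17%, median 1.57), beside 34.6% and 23.4% of all genes (median 0.19). Its sum was 16330.3, 6309, 34044, 10052 and 7928 CPM in the S-like and 9016, 10639, 4688, 2890.3 and 13623 CPM in the G2/M-like cells, which overlapped, and no member separated the classes. Egr1, an early response factor, was 4486, 1369, 13699.7, 4456 and 1809 CPM in S-like and 3019, 4834, 404, 18.4 and 6485 CPM in G2/M-like cells (0.91), highest in cell 1, and Hsp90aa1, a chaperone, was 2890.3 to 3767 CPM in S-like and 2209 to 4261 CPM in G2/M-like cells. Neither Egr1 nor Hsp90aa1 differed by 2-fold, so neither is among the 15. Hspa1a and Hspa1b are among them and rest on few cells. Hspa1a was 23.7, 0, 82.9, 0 and 1.69 CPM in S-like cells and at most 0.0572 CPM in any G2/M-like cell. Hspa1b was 3.03 CPM in cell 2 and at most 0.0636 CPM in any other cell. The part of this response in the other differences between the classes was not tested.

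Markers of other cells differed in how widely they were read. Their counts past 2-fold stand beside 34.6% higher and 23.4% lower over all genes, and rest on few measured members. Endothelial markers (7 of 15 measured, 4 and 2 of 7 higher and lower) summed to 0.385 to 65.4 CPM in S-like and 0 to 99.8 CPM in G2/M-like cells, with Pecam1 at 33.3 CPM in cell 1 and Tek at 99.3 CPM in cell 8. Macrophage markers (4 of 14 measured, 1 and 3 of 4) summed to 0 to 6.401 CPM in S-like and 0 to 248 CPM in G2/M-like cells, nearly all of it Emr1 in cell 8 (248 CPM) and Lyz2 in cell 7 (28.4 CPM). Mural markers (6 of 7 measured, 1 and 4 of 6) summed to 45.8 to 250.3 CPM in S-like and 7.34 to 517 CPM in G2/M-like cells, mostly Abcc9, which was read in all 10 cells and which cardiomyocytes also express. Fibroblast markers (11 of 16 measured, 5 and 1 of 11) summed to 494 to 2048 CPM in S-like and 545 to 1810.2 CPM in G2/M-like cells, mostly Fstl1 (188 to 1313 CPM in S-like and 206 to 1360.3 CPM in G2/M-like cells) and Fn1 (77.5 to 518 CPM in S-like and 0.0956 to 875 CPM in G2/M-like cells), both read in all 10 cells, and Col3a1 had 8.71 CPM in cell 1 and almost none elsewhere. Epicardial markers (4 of 10 measured, 1 and 2 of 4) summed to 45.9 to 308 CPM in S-like and 0.697 to 656 CPM in G2/M-like cells. Tbx18, a transcription factor of the list, was 119, 307, 45.4, 146 and 88.3 CPM in S-like and 0, 0.133, 3.49, 603 and 86.9 CPM in G2/M-like cells. Wt1, another, had 146 CPM in cell 2 and under 1 CPM elsewhere. The erythroid list had 1 measured member, Alas2, in cells 2 and 1. In all 10 cells together, 5 endothelial, 8 macrophage, 1 fibroblast, 7 erythroid, 1 mural (Rgs5) and 3 epicardial markers had no count. Among them were Kdr, Emcn and Tie1 (endothelial), Csf1r, Cx3cr1 and Ptprc (leukocyte) and Klf1 (erythroid). Other markers of these lists were read, several of them in cell 8. Besides Tek and Emr1, cell 8 had the mural markers Cspg4 (62.6 CPM) and Myh11 (21.04 CPM). Cspg4 was also 44.3 CPM in cell 1, and Myh11 was at most 0.0572 CPM in any other cell. Cell 1 was the only one of the 10 with a read of Eng, another endothelial marker. The part of such RNA in the differences above was not tested.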

How the data were processed

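The authors deposited a table of raw read counts for 20728 genes in 33 cells, whole numbers without normalization. Per the submitters' processing notes, the tools were CASAVA 1.8.2, STAR 2.4.0j and HTSeq 0.6.1p1, and the genome build was mm10. How the tools were set, whether strand was used, the treatment of duplicates and the annotation are not given in the sources used here. Amplification of single-cell RNA and PCR copying precede the counts, so a value of 0 can be a lost molecule. No column was identical to another and every column was mapped to a sample.

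The ratio was formed from counts in each E14.5 positive cell, and its 15 genes were left out of all comparisons. The members, the 31 gene lists (781 genes, 755 found) and the alternatives were chosen with earlier results of these data known. Genes needed 10 counts over the 10 cells. Exact Poisson and conditional binomial 95% intervals were computed, and a class without counts was given a floor of 3 counts over the class. A fold formed with this floor depends on it and is not a lower bound. Genes were named by a rule: 14 genes in every case, in each list the 2 of highest level and the 2 of largest log2 ratio (not all of these are described), the ratio genes, and the 8 genes with the widest gap without overlap in each direction, leaving out predicted, clone, pseudogene and mitochondrial names. Clspn, Rfc3 and Orc6 were added after their values were seen, as were the members without overlap that are named only in a count.

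Other settings tried were equal weights for the cells (mean CPM), TMM factors (edgeR 4.0.16), size factors (DESeq2 1.42.0), a minimum of 100 or 1 counts, thinning, other rankings, 3 against 3 cells, title numbers 1 to 10 only, leaving out each cell and, chosen after seeing the data, leaving out cells 2 and 4. The calculation was tested on simulated data: for 200 genes changed 2- or 4-fold between the S-like and G2/M-like classes, among 12495 genes, the direction was found for 100% of them. The simulated counts varied by counting error alone, and the changed genes were drawn from those with many counts. Differences between cells and lost molecules were left out, so the result checks the arithmetic only. Promoters came from RefSeq (GRCm38.p6). In that set 4163 genes had more than 1 promoter entry, and a gene counted as holding an element if any of its entries did. Python 3.11.15 with numpy 2.4.6, pandas 2.3.3, scipy 1.17.1 and matplotlib 3.10.9, and R 4.3.3 were used.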

Additional observations from a re-analysis of the deposited data

Results flagged for a closer look

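In 28 of 254 sets of 5 values, 1 cell lay so far from the other 4 that its gap exceeded Dixon's 95% critical value for 5 samples. A set was a gene, a list sum, the total counts or the number of genes with a read within one class. For normally distributed values chance gives about 1 in 20 of such sets, but these are levels of single cells with many zeros, in genes partly picked for large ratios, so that rate is no reference for the count here. Cell 3, the G2/M-like cell with a low title number, was the far one on the low side for Aurkb (0.864 CPM, others 41.9 to 67.9), Ccng2 (38.3 CPM, others 543 to 766), Fbxo5 (0 CPM, others 124 to 593), Nkx2-5 (0.216 CPM, others 4.66 to 8.39) and Cox4i1 (27.9 CPM, others 306 to 389.6). It was the far one on the high side for Cdt1 (72.7 CPM, others 0) and Slc2a4 (2.16 CPM, others 0 to 0.239). Cell 9, the G2/M-like cell of highest ratio, stood low for Seh1l (49.9 CPM, others 367 to 480.1) and for the summed levels of nuclear transport genes (4522 CPM, others 7248 to 8068) and ribosomal protein genes (11969 CPM, others 19197 to 22493). It stood high for Ccne1 (62.05 CPM, others 0 to 0.515), Rfc3 (24.8 CPM, others 0 to 0.686) and Ifit2 (0.334 CPM, others 0).

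Of the other G2/M-like cells, cell 7 stood low for Birc5 (1156 CPM, others 1775 to 2056) and high for Ung (24.6 CPM, others 0 to 1.19), Cebpd (1.17 CPM, others 0 to 0.0239) and Xpa (0.329 CPM, others 0). Cell 8 stood high for E2f1 (27.6 CPM, others 0 to 0.0478) and Leprel1 (0.149 CPM, others 0), and cell 10 for Zfp512 (3.97 CPM, others 0 to 0.143). In the S-like class, cell 2 stood high for Leprel1 (337 CPM, others 14.2 to 24.5) and low for Tubb5 (492 CPM, others 1147 to 1353). Cell 1 stood high for Ccne2 (1.21 CPM, others 0 to 0.168) and low for Ccng2 (203 CPM, others 479.6 to 618), and cell 4 stood low for Hist3h2a (0.334 CPM, others 158 to 429). Cell 5 stood low for Sun2 (0 CPM, others 4.26 to 8.46), Frg1 (0.109 CPM, others 11.8 to 25.02) and the summed glycolysis genes (1783 CPM, others 2343 to 2418). In Xpa, Ifit2 and Leprel1 of the G2/M-like class the other 4 cells had no count.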

How the results depend on the processing

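No paired analysis was possible because each sample is 1 cell, the classes were cut within 1 group and the values come from no test. Rankings by mean log2(CPM + 1) and without Pcna and Top2a left both classes as they were. The counts without overlap moved most: the 33 lower genes became 58 under TMM scaling and 57 under DESeq2 scaling, and, since fewer cells make separation easier, 246 for 3 against 3 cells and 40 to 207 with any single cell removed, the highest without cell 3. Of the 180 higher genes 149 stayed apart under TMM and 151 under DESeq2 scaling, and the number without overlap became 1134 for 3 against 3 and 225 to 339 with any single cell removed. Without S-like cells 2 and 4, an alternative chosen after seeing the data, the counts were 473 and 61. Within title numbers 1 to 10, where cell 3 alone stands for the G2/M-like class, they were 2729 and 1501, and 6919 genes were at least 2-fold higher. There the G2/M median was 0.075 and the S phase median 3.20 (1.37 for 3 against 3), and these ratios turned positive: Spc25 0.38, Zwint 4.80, Psrc1 3.63, Troap 0.81, Syne2 0.29, Tnnt2 1.31, Myl2 1.04, Myh7 0.67, Tpi1 0.72, Cox4i1 1.71 and Rps4x 0.20, with the mural median at 0.86 and the macrophage median at 0.63. For 3 against 3 cells the mural and macrophage medians were 1.24 and 2.11. With each cell left out, Psrc1 ranged over -3.83 to 0.061, and the medians over -1.53 to 5.93 (endothelial), -2.81 to 0.27 (mural) and -2.22 to 1.54 (macrophage). The cause of these moves was not tested. TMM factors took the median of all genes from 0.19 to 0.03. The share of higher among the genes past 2-fold was 59.6%, 55.2% with TMM and 76.7% within title numbers 1 to 10.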
